A study of Homo sapiens with 6 samples.

Results

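The genes described here are the D-type cyclins, their partner kinases CDK4 and CDK6, and the CDK inhibitors of the Cip/Kip and INK4 families, 10 genes in all. Every probe set other than the platform controls whose annotation names exactly 1 of these genes was taken, which gave 25 of 54613 probe sets on the array and covered 9 of the 10 genes. CDKN2C, the INK4 inhibitor p18, had no probe set named for it in the annotation used and was not analysed here. The 2 groups were K562 cells exposed for 3 h to 25 nM cortistatin A (CA), and K562 cells exposed for 3 h to the vehicle DMSO, with 3 arrays each. K562 is a single established line from a chronic myelogenous leukaemia, carries the BCR-ABL1 fusion kinase, and lacks functional p53 and the chromosomal segment with the INK4 genes CDKN2A and CDKN2B. CA inhibits the Mediator kinases CDK8 and CDK19. Values are log2 signals of Affymetrix U133 Plus 2.0 arrays processed by the authors with RMA. The p values below measure the spread between wells plated in triplicate, which may be partly technical.

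In the G1 phase of the cell cycle, D cyclins bind CDK4 or CDK6, and the active kinases phosphorylate the retinoblastoma protein, which releases E2F transcription factors. INK4 proteins bind CDK4 and CDK6 and block their pairing with D cyclins. Cip/Kip proteins inhibit cyclin E and cyclin A complexes with CDK2, and they also help D cyclins and CDK4 to assemble. In BCR-ABL1 leukaemia cells the kinase is known to drive D cyclin expression and to hold down the Cip/Kip inhibitor p27.

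Each array correlated with every other at r of 0.9966 or more across probe sets. In a principal component analysis, CA array 1 had a coordinate of -19.1 on the second axis, and the other 5 arrays had 0.338 to 7.20. Of 8 erythroid and K562 markers with a probe set of their own, all 8 lay above the median of all probe sets, with summed signals of 75.7 in CA and 75.2 in DMSO. Of 13 markers of other cell types, 7 lay above that median and the summed signals were 60.0 in CA and 59.4 in DMSO. EPCAM (10.5), CD3D (9.07) and the collagen genes COL1A1 (6.94) and COL1A2 (5.88) were the bright ones. Other markers of the same cell types were dimmer, with KRT5 at 3.68 and CDH1 at 2.70 beside EPCAM, CD3E at 3.72 beside CD3D, and COL3A1 at 2.47. Of these, KRT5 and CD3E lay just above the median. The B cell marker CD79A, at 4.70, also lay above it, and CD2, MS4A1, CD14 and CD163 were at 2.39 to 2.70. The 3' minus 5' signal of the ACTB control, a measure of RNA or labelling quality, was 1.14, 1.18 and 1.31 on the CA arrays, against 1.45, 1.49 and 1.40 on the DMSO arrays, so the groups did not overlap. The same difference for GAPDH averaged 0.604 in CA and 0.636 in DMSO.

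RefSeq promoter windows, 250 bases before to 50 after each transcript start on GRCh38.p14, were found for 6 of the 9 measured genes, 9 windows in all. Shown are those of the 2 inhibitors whose CA arrays all lay below their DMSO arrays, and of CDK4, the kinase whose CA arrays all lay above. Capitals mark matches, on either strand, to the GC box GGGCGG bound by SP1 family factors and to the E-box CACGTG bound by MYC and related factors.
CDKN1A, chr6:36678464-36678763, plus strand: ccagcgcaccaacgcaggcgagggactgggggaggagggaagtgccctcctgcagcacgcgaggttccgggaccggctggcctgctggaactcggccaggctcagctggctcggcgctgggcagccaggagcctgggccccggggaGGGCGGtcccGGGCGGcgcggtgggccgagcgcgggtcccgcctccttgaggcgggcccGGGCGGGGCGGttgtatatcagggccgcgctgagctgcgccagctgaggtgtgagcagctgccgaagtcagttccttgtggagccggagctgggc
CDKN1B, chr12:12717118-12717417, plus strand: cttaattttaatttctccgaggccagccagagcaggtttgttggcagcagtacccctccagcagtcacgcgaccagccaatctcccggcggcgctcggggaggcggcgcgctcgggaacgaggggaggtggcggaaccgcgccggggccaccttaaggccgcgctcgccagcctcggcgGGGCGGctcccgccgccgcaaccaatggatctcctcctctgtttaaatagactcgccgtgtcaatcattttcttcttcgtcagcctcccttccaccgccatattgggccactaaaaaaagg
CDK4, chr12:57752261-57752560, minus strand: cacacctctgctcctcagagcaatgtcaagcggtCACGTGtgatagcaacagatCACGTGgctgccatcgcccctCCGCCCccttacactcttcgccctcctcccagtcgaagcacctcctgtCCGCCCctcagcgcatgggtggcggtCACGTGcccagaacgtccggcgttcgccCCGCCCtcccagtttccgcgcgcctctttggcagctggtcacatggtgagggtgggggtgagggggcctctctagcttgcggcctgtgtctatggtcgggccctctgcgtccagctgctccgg
The CDKN1A window held 4 GC boxes, of which the last 2 overlap by 1 base, and the CDKN1B window held 1. The CDK4 window held 3 E-boxes and 3 GC boxes. A GC box is present in 45% and an E-box in 7.26% of the 35116 promoter windows in the table, and they were found in 7 and 2 of the 9 windows of these genes. The other E-box was in a window of CDK6. The EGR spellings GCGTGGGCG (0.795% of all windows) and GCGGGGGCG (5.07%) and the E2F spellings TTTGGCGC (0.652%) and TTTCGCGC (0.515%) were searched as well. Their only match was 1 GCGGGGGCG in a CCND3 window, where it overlaps a GC box. These matches describe letters and not binding.

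With CA, on the brightest probe set of each gene, the 4 measured CDK inhibitors among these genes had lower fitted values than with DMSO. They ran from 1.08-fold lower for CDKN2D to 1.15-fold lower for CDKN1A. Of all 12810 measured genes, 7234 had lower fitted values in CA. CCND1 was 1.10-fold lower, and CDK4, CDK6, CCND2 and CCND3 had fitted values within 1.04-fold of DMSO. CDKN2D was dim, at 4.42 in CA and 4.54 in DMSO. A probe set of CDKN2A, an inhibitor outside these genes that K562 cells are known to have lost, was similarly dim and 0.21 higher in CA. That probe set carries the platform's mark for probes that can cross-hybridise. Other probe sets of CCND2 and CDK6 differed by up to 1.15-fold (lower) and 1.11-fold (higher). None of these differences passed the test. They are relative to the other transcripts, and a scaling that adds 1 constant to all probe sets (0.20, from the 3' ends of added control RNAs) makes 3 of the 4 inhibitor changes positive without altering how they stand to the median. By limma, with Benjamini-Hochberg adjustment over all tested probe sets, 0 of 22 tested member probe sets and 0 of 9 genes had an adjusted p under 0.05. This compares with 0.0952% of all 27307 tested probe sets (14 higher and 12 lower in CA), and with 8 higher and 3 lower of 12810 measured genes. The lowest adjusted p among the members was 0.328, for a CDKN1C probe set. Letting the prior variance vary with mean signal also gave 0 member probe sets, against 1.04% of all. Before adjustment, 5 of the 22 probe sets had p under 0.05, all lower in CA, against 4.76% lower at that level over all probe sets.

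Of the 9 genes, each read from its brightest probe set, 4 had an unadjusted p under 0.05 and a lower value in CA, against 5.02% of the 12810 measured genes, and 0 had a higher value, against 3.59%. These 4 were CDKN1A, CDKN1B, CDKN1C and CCND1. All 3 CA arrays lay below all 3 DMSO arrays for CDKN1A, CDKN1B and CCND1, against 9.95% of measured genes, and above them for CCND2 and CDK4, against 6.14%. The median change was -0.18 for the 4 inhibitors and 0.03 for the 5 cyclin and kinase genes, beside -0.01 over all measured genes. In bulk RNA, fewer cells with a transcript and less of it per cell cannot be told apart.

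**Figure D1:**
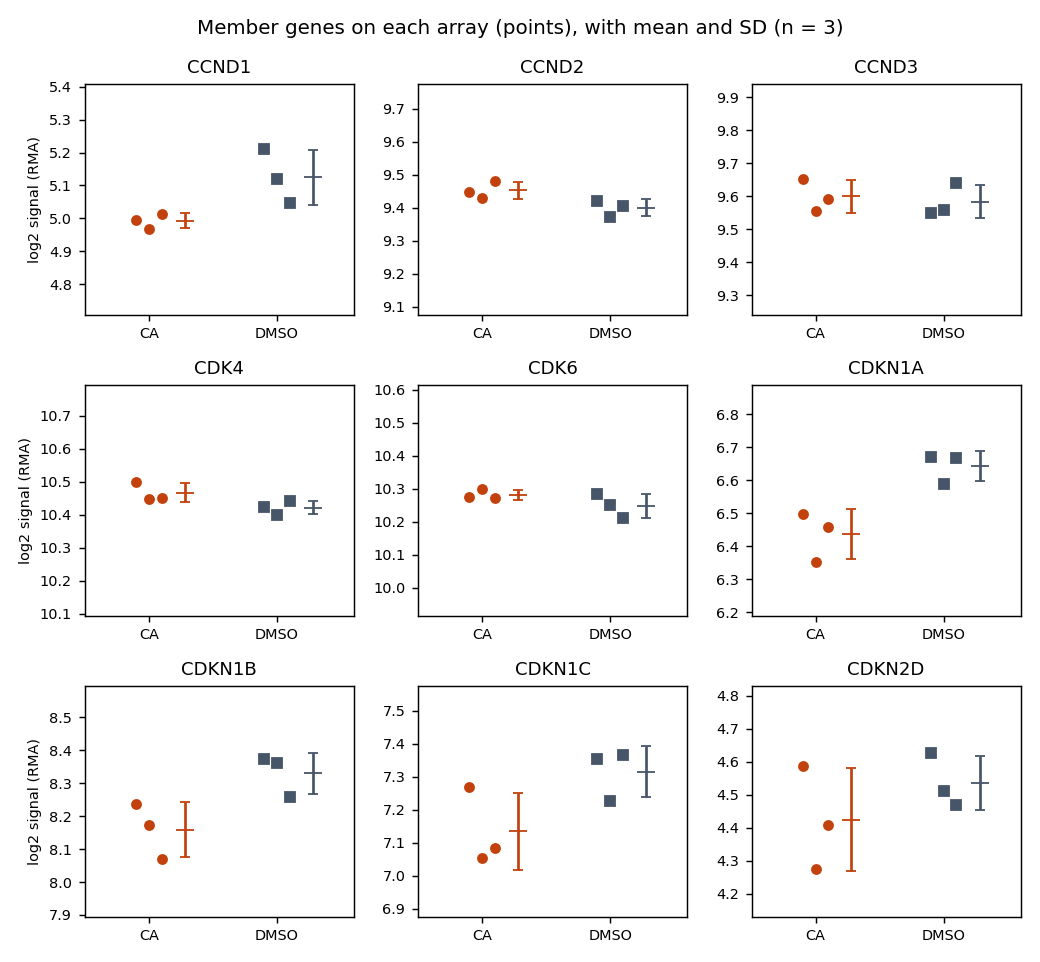
Log2 RMA signal of the 9 measured genes on each array, CA (circles) left of DMSO (squares), with mean and SD (n = 3); every panel spans the same log2 range. CDKN1A, CDKN1B and CCND1 show CA points below all DMSO points, and CCND2 and CDK4 show CA points slightly above.

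At baseline, in K562 cells with DMSO alone, CCND2, CCND3, CDK4 and CDK6 each had at least 1 probe set above the 95th percentile of all probe sets. Signals of different probe sets depend on their own affinity, so these values do not order the genes by transcript level. CCND2 reached 9.40 ± 0.03 (SD, n = 3) on its brightest probe set and CCND3 9.58 ± 0.05, whereas the 2 CCND1 probe sets gave 5.12 ± 0.08 and 4.86 ± 0.09, at the 70.1 and 67.6 percentiles. CDK4 had 10.42 ± 0.02 and the brightest CDK6 probe set 10.25 ± 0.04.

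Among the inhibitors in DMSO, CDKN1B, which encodes p27, gave 8.33 ± 0.06, at the 91.3 percentile. CDKN1C, which encodes p57, gave 7.32 ± 0.08 on its brightest probe set, and CDKN1A, which encodes p21, gave 6.64 ± 0.05. CDKN2D, which encodes the INK4 protein p19, was dim, with 4.54 ± 0.08 on 1 probe set and 2.94 ± 0.12 on the other. Probe sets of 1 gene spread widely: the 4 CCND2 probe sets ran between 3.95 and 9.40 in DMSO, the 7 CDK6 probe sets between 4.41 and 10.25 and the 5 CDKN1C probe sets between 3.19 and 7.32. Only probe sets whose 6-array mean reached the overall median of 3.49 entered the test, and the 3 member probe sets below it were 1 each of CCND3 (3.20), CDKN1C (3.18) and CDKN2D (2.88).

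**Figure D2:**
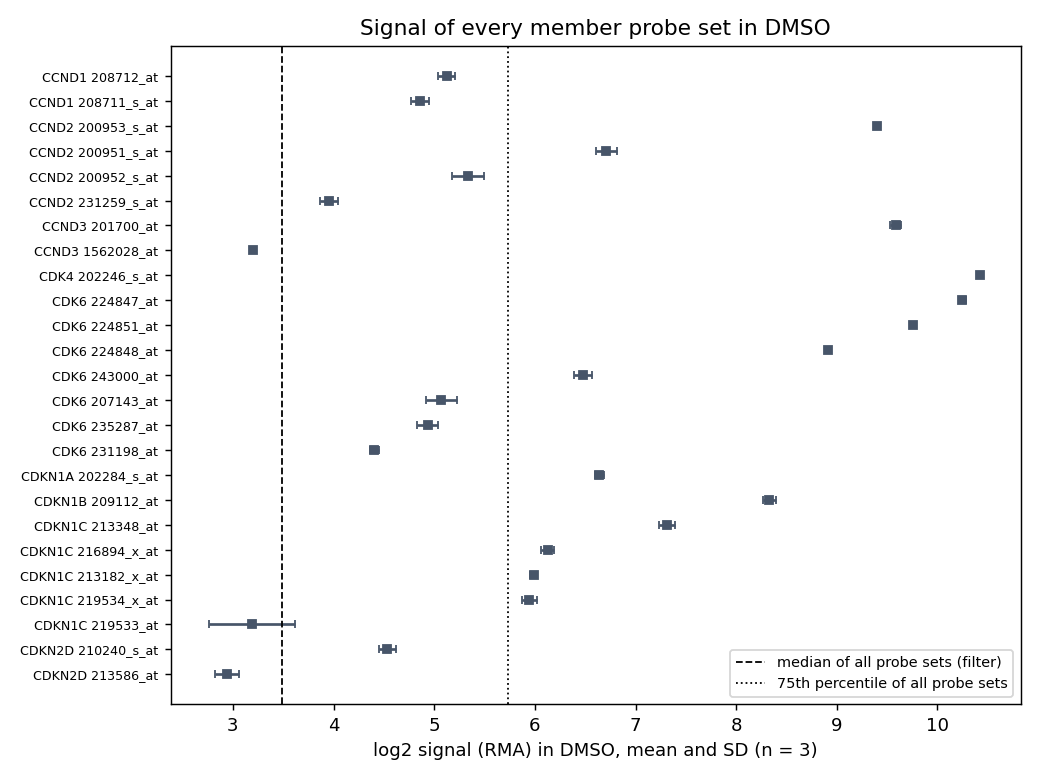
Mean and SD (n = 3) of the log2 RMA signal in DMSO for all 25 probe sets, grouped by gene, with the median (dashed) and 75th percentile (dotted) of all probe sets. CCND2, CCND3, CDK4 and CDK6 each have a probe set above 9, and 3 probe sets lie left of the dashed filter line.

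CCND1, the D cyclin most used outside the blood system, had 4.996, 4.969 and 5.014 on the CA arrays, against 5.210, 5.118 and 5.046 on the DMSO arrays. The CA arrays lay below the DMSO arrays and close together. The log2 change was -0.13 (95% confidence interval -0.26 to -0.003, limma adjusted p = 0.527). Its other probe set had 4.91, 4.86 and 4.85 in CA, against 4.78, 4.83 and 4.96 in DMSO, a change of 0.01 (-0.12 to 0.15), with overlapping groups.

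CCND2, a D cyclin known as a STAT5 and MYC target, had 9.45, 9.43 and 9.48 in CA on its brightest probe set, against 9.42, 9.37 and 9.40 in DMSO. The groups did not overlap, and the change was 0.05 (-0.05 to 0.15, limma adjusted p = 0.756). The other CCND2 probe sets did not share 1 direction. The probe set at 5.14 in CA and 5.34 in DMSO changed by -0.20 (-0.40 to 0.01), that at 6.62 in CA and 6.71 in DMSO by -0.09 (-0.23 to 0.05), and the dimmest by 0.05 (-0.09 to 0.19). The part of the ACTB 3' minus 5' difference given above in this disagreement was not tested.

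CCND3, the D cyclin prominent in blood cells, had 9.65, 9.56 and 9.59 in CA, against 9.55, 9.56 and 9.64 in DMSO. The groups overlapped, and the change was 0.02 (-0.10 to 0.13), an interval that spans from 0.932 to 1.10 times the DMSO level.

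CDK4 had 10.50, 10.45 and 10.45 in CA, against 10.42, 10.40 and 10.44 in DMSO. The lowest CA array lay just above the highest DMSO array, and the change was 0.05 (-0.05 to 0.14, limma adjusted p = 0.793). CDK6, the partner of D cyclins that predominates in many blood cells, had 10.28, 10.30 and 10.27 in CA, against 10.28, 10.25 and 10.21 in DMSO, with overlapping groups and a change of 0.03 (-0.07 to 0.13). The other 6 CDK6 probe sets had changes between -0.03 and 0.14, 4 above and 2 below 0, and each interval included 0. For the brightest probe sets of CDK4 and CDK6 the intervals span from 0.955 to 1.10 times the DMSO level.

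CDKN1A had 6.499, 6.352 and 6.458 in CA, against 6.670, 6.590 and 6.667 in DMSO. Every CA array was below every DMSO array. The change was -0.21 (-0.34 to -0.07), or 1.15-fold lower, with an unadjusted p of 0.00802 and a limma adjusted p of 0.343. This gene has 1 probe set, and the p53 protein that commonly drives it is not functional in these cells.

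CDKN1B had 8.24, 8.17 and 8.07 in CA, against 8.37, 8.36 and 8.26 in DMSO. The groups did not overlap, with CA array 1 just below DMSO array 3. The change was -0.17 (-0.32 to -0.03), or 1.13-fold lower, with an unadjusted p of 0.0274 and a limma adjusted p of 0.453.

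CDKN1C had 7.27, 7.05 and 7.08 in CA on its brightest probe set, against 7.35, 7.23 and 7.37 in DMSO. CA array 1 lay above DMSO array 2, so the groups overlapped. The change was -0.18 (-0.36 to -0.004, limma adjusted p = 0.527). The other 3 tested CDKN1C probe sets were also lower in CA, by fitted changes of -0.27 (-0.44 to -0.11, limma adjusted p = 0.328), -0.25 (-0.51 to 0.01) and -0.07 (-0.21 to 0.06). The first of these had 5.78, 5.58 and 5.64 in CA, against 5.98, 5.86 and 5.99 in DMSO. These 3 carry the platform's mark for probes that can cross-hybridise, so they are not independent of each other or of other transcripts.

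CDKN2D had 4.59, 4.28 and 4.41 in CA, against 4.63, 4.51 and 4.47 in DMSO. The groups overlapped, and the change was -0.11 (-0.32 to 0.10, limma adjusted p = 0.762). Its second probe set, too dim to be tested, averaged 2.82 in CA and 2.94 in DMSO.

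**Figure D3:**
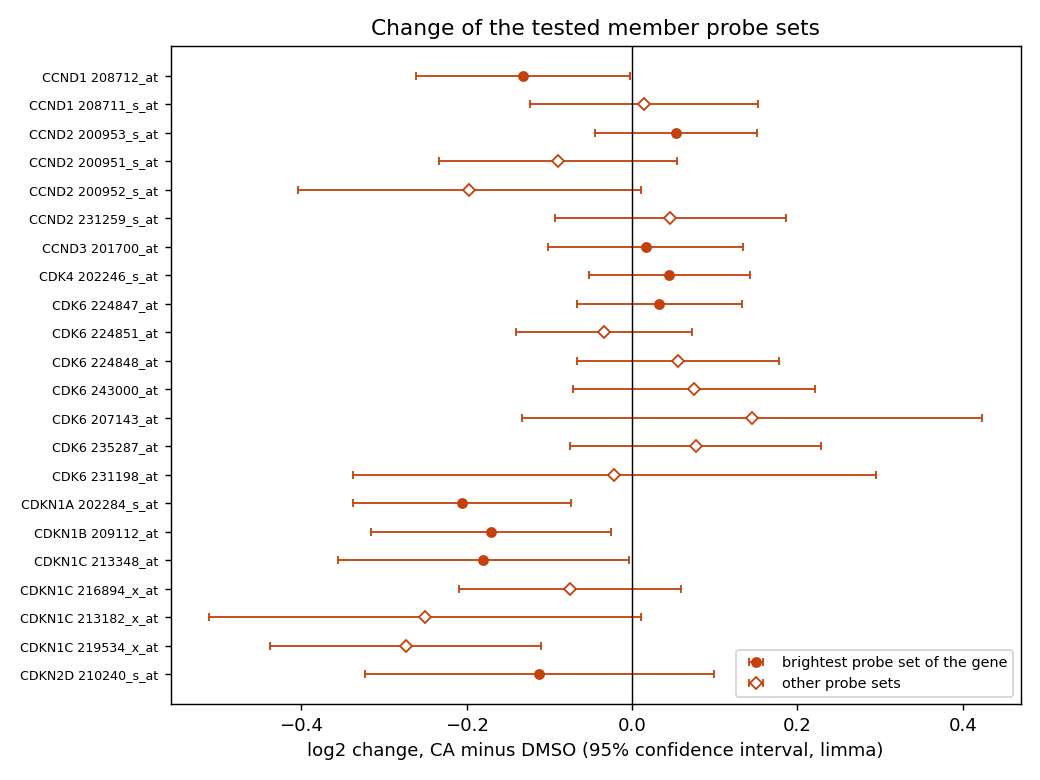
Log2 change on the deposited scale, CA minus DMSO, with the 95% confidence interval from limma for the 22 tested member probe sets; filled circles are the brightest probe set of each gene and open diamonds the others. All tested probe sets of the CDK inhibitors have fitted changes left of 0, but the intervals of CDKN2D and of some CDKN1C probe sets include 0. Those of CDK4, CDK6 and CCND3 have intervals that include 0, and the fitted changes of CCND1 and CCND2 lie on both sides.

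The inhibitors and the cyclin and kinase genes were also set side by side within each array. The mean deviation of each set depends on how arrays are scaled to each other, and only the difference between the sets does not. The mean deviation of the 4 inhibitors from their DMSO means was -0.06, -0.24 and -0.20 on the 3 CA arrays, against 0.05, -0.03 and -0.02 on the DMSO arrays. For the 5 cyclin and kinase genes it was 0.02, -0.01 and 0.01 in CA, against 0.02, -0.02 and -0.01 in DMSO. The inhibitors minus the cyclin and kinase genes thus gave -0.08, -0.23 and -0.21 in CA, against 0.03, -0.02 and -0.01 in DMSO. The groups did not overlap, but how often other sets of genes would do so was not computed. This difference averages the same member values given above, with the DMSO mean at 0 by construction, so it is not separate evidence. CA array 1, the array set apart in the principal component analysis, had the smallest displacement of the CA arrays. Without it the changes were larger in size for CDKN1A (-0.24), CDKN1B (-0.21), CDKN1C (-0.25) and CDKN2D (-0.19), with 0 member genes called. Without CA array 2 they were smaller for CDKN1A (-0.16), CDKN1C (-0.14) and CDKN2D (-0.04), and without CA array 3 for CDKN1B (-0.13). CDKN2D was also at -0.07 without DMSO array 1, so the size of its change depends on single arrays.

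Scaling the arrays to the 3' probe sets of the added polyadenylated control RNAs moved the median of all probe sets to 0.19, against -0.01 as deposited. On that scale 3675 of all 27307 tested probe sets passed the test upward and 16 downward, beside 3 of 22 member probe sets. The scaling added 0.20 to every member's change, so CDKN1B (0.03), CDKN1C (0.02), CDKN2D (0.08) and CCND1 (0.06) turned positive while CDKN1A stayed just below 0 at -0.01. Also on that scale CDK4 passed the test at 0.24 (limma adjusted p = 0.0489; over all its alternatives the adjusted p ran between 0.0489 and 0.99997). Relative to the median of all probe sets the changes were the same on both scales, at -0.20 for CDKN1A, -0.16 for CDKN1B, -0.17 for CDKN1C, -0.10 for CDKN2D and 0.05 for CDK4. Scaling to the 5' probe sets of the same controls left all 9 directions as deposited.

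**Figure D4:**
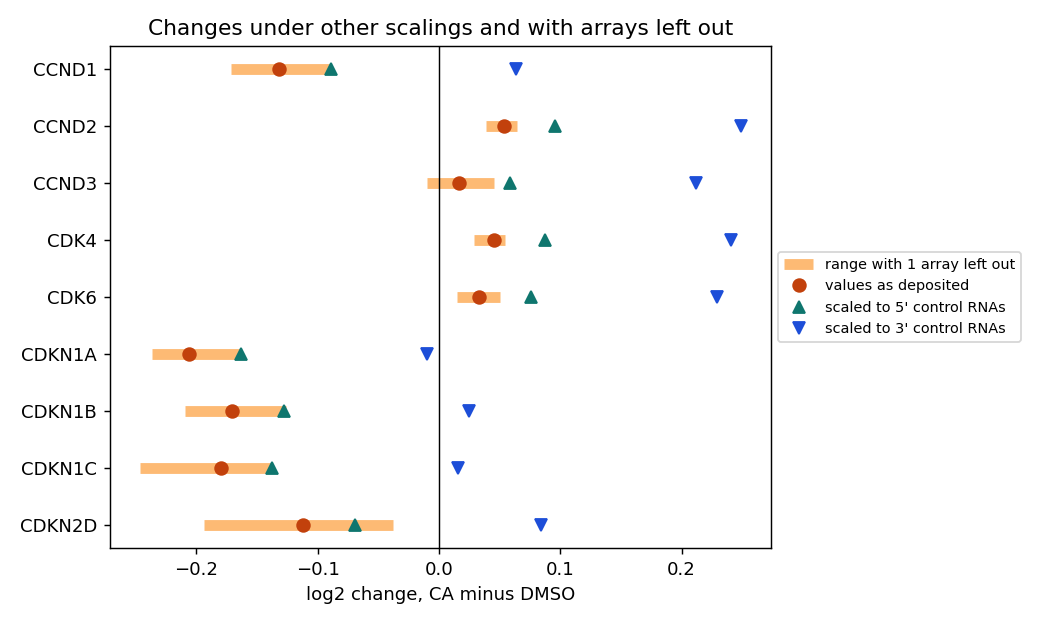
Log2 change, CA minus DMSO, of the 9 genes with the deposited values (circles), after scaling to 5' (upward triangles) or 3' (downward triangles) probe sets of the added control RNAs, and the range with 1 array left out (bars). The 4 inhibitors and CCND1 lie left of 0 except after 3' scaling, where CDKN1A is at -0.01 and the others are right of 0.

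Whether members of a family moved apart was tested on the difference between 2 genes within each array, for 7 pairs, by an exact 2-sided permutation test that cannot give a p under 0.1 with 3 arrays each. CCND1 minus CCND2 was -4.45, -4.46 and -4.47 in CA, against -4.21, -4.25 and -4.36 in DMSO, a difference of -0.19 with no overlap (exact permutation p = 0.1, adjusted p = 0.7), but of -0.01 when all tested probe sets of each gene were averaged. CCND1 minus CCND3 differed by -0.15 (exact permutation p = 0.3), by -0.08 when all tested probe sets were averaged and by -0.09 without DMSO array 1. CCND2 minus CCND3 differed by 0.04 (exact permutation p = 0.5). CDK4 minus CDK6 differed by 0.01. Between the 3 Cip/Kip genes the differences of change were -0.04, -0.03 and 0.01, each smaller than the SD of the same quantity among the arrays of either group.

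Other genes of the pathway were read in 5 lists, and 0 of their 42 measured members were called. Among all 12810 measured genes, 8 were called higher and 3 lower, beside 0.0952% of all tested probe sets. The counts at an unadjusted p under 0.05 below stand beside 5.02% of all measured genes lower and 3.59% higher at that level. Among pocket proteins and E2F factors, 3 of 13 had an unadjusted p under 0.05, all lower in CA, and the median change was -0.04. E2F2, an activator of S phase genes, had 7.05, 7.03 and 7.05 in CA, against 7.20, 7.25 and 7.27 in DMSO, a change of -0.20 (limma adjusted p = 0.247). E2F8 and E2F7, repressors that act later in the cycle, changed by -0.27 (limma adjusted p = 0.353) and -0.11 (limma adjusted p = 0.491). With the constant of the 3' control scaling added, E2F8 was at -0.08, E2F2 at -0.0024 and E2F7 at 0.08. TFDP1, the partner of E2F proteins and the brightest of this list, changed by -0.03, and RB1 by -0.05.

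Both E cyclins had lower values in CA on the deposited scale; the constant that 3' control scaling adds puts CCNE2 at -0.16 and CCNE1 at 0.02, which does not separate the genes. CCNE2 had 7.737, 7.782 and 7.634 in CA, against 7.999, 8.245 and 7.974 in DMSO, a change of -0.36 (-0.56 to -0.15, limma adjusted p = 0.304). CCNE1 had 7.95, 7.91 and 7.93 in CA, against 8.13, 8.14 and 8.05 in DMSO, a change of -0.18 (-0.28 to -0.07, limma adjusted p = 0.331). The CA arrays lay below the DMSO arrays for both genes, as for 9.95% of all measured genes. They were the 2 of 6 measured genes in the list of cyclins E and A with CDK2 that had an unadjusted p under 0.05, while CCNA2, the brightest, changed by 0.08 and CDK2 by -0.03.

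The list of other INK4 genes and CDK4 regulators had 4 of 5 members measured and 2 at an unadjusted p under 0.05. SERTAD1, a protein that binds CDK4 and was the list member with the lowest p, had 6.49, 6.43 and 6.46 in CA, against 6.84, 6.77 and 6.87 in DMSO. Its change was -0.37 (-0.48 to -0.26, limma adjusted p = 0.0813), and every CA array lay below every DMSO array. A CDKN2A probe set had 4.36, 4.21 and 4.21 in CA, against 4.13, 3.98 and 4.05 in DMSO, a change of 0.21 (limma adjusted p = 0.384) at a signal close to the filter and in a gene that K562 cells are known to have lost. CDKN2B probe sets averaged 2.96 and 1.66 and were not tested. CCNDBP1, the brightest of this list, changed by -0.03.

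Kinase activators and chaperones of CDK4, and genes that govern the turnover of D cyclins and CDK inhibitors, had 0 of 6 and 0 of 13 members at an unadjusted p under 0.05. HSP90AA1, a chaperone and the brightest of the first list, changed by -0.03, and SKP1, a subunit of the ubiquitin ligase that degrades p27 and the brightest of the second, changed by 0.01. Changes in both lists lay between -0.10 and 0.05.

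**Figure D5:**
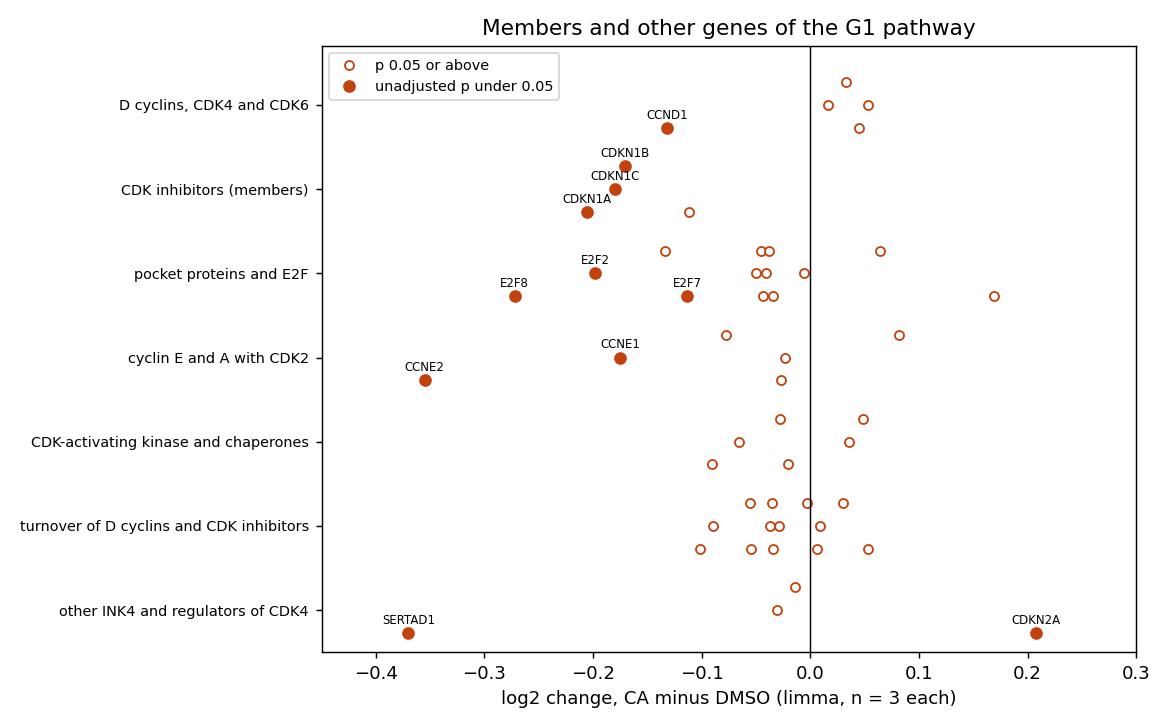
Log2 change, CA minus DMSO, of the 9 member genes (upper 2 rows) and of 42 other genes of the pathway by list, each read from its brightest tested probe set; filled points have an unadjusted p under 0.05 and are named. On the deposited scale the named points lie left of 0 except CDKN2A, and no point passed the adjusted test.

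For the 4 genes with an unadjusted p under 0.05, the genes whose values over the 6 arrays were most like theirs were read by Pearson's r, as a description over arrays that share a group difference. Nearest to CDKN1A were MRPL41 (r = 0.994), GPX4 (0.992) and TNFSF9 (0.989). Nearest to CDKN1B were PARP4 (0.992), CHD2 (0.992) and SECISBP2L (0.988), and nearest to CDKN1C were EDEM2 (0.995), BBOX1-AS1 (0.989) and GFOD2 (0.987). CCND1 was nearest to LMAN2 (0.989), OTULIN (0.983) and C5orf24 (0.979). None of these 12 nearest genes was itself a member, and only 9 of the 12810 measured genes were members.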

How the data were processed

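RNA of K562 cells was measured on 6 Affymetrix U133 Plus 2.0 arrays, 3 with CA and 3 with DMSO. The authors deposited log2 values for 54675 probe sets, made with RMA in the affy package per the submitters' processing notes; versions are not given in the sources used here. RMA gives all arrays 1 intensity distribution, so a shift shared by most transcripts is not visible, and it compresses changes of dim probe sets. The labels name 2 RNA extraction methods without saying which sample had which, and give no batch.

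From these values, 62 control probe sets were left out and 27307 probe sets with a mean at or above 3.49 were tested with limma 3.58.1 in R 4.3.3 (lmFit and eBayes, no block, 2-sided), with Benjamini-Hochberg adjustment over all of them and a threshold of 0.05. The median SE of a log2 change was 0.07, and the number of arrays limits the precision. Genes were named from the platform annotation where it gave 1 symbol (41091 probe sets) and read from the brightest tested probe set. The test was checked on simulated data, with changes put in that were larger than those of any member. The check therefore does not show whether changes of the members' size could be detected. Named were all members, the brightest gene of each pathway list, list genes with an unadjusted p under 0.05, and the 3 genes most correlated with each member at that level. RB1, CDK2 and the genes of other cell types were named after their values were seen. The members and lists were chosen with earlier results of these data known. Alternatives were other filters, variance models, scalings, weights, probe set choices, a replicate block and leaving out each array.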

Additional observations from a re-analysis of the deposited data

How the results depend on the processing

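The number of member genes called stayed at 0 under each alternative run except scaling to 3' control RNAs. With that scaling it was 1 of 9 (CDK4), and 3 of 22 member probe sets were called, beside 3691 of all 27307 tested probe sets. Over all probe sets the count was 26 as deposited. It was 5 with no filter, 162 with a filter at the 75th percentile, 285 with a prior variance following the mean signal, 3691 with 3' control scaling, 1 without probe sets marked as shared, and between 2 and 5 with each array left out. With the replicate number as a block it was 0, although 2485 had an unadjusted p under 0.05. Deviations of arrays with the same number correlated at -0.07, 0.01 and 0.06, so no effect shared by arrays of the same number was seen. With 3 arrays per group this cannot show whether the samples were handled in pairs. With 3' control scaling, changes turned positive for CCND1 (0.0638), CDKN1B (0.0250), CDKN1C (0.0158) and CDKN2D (0.0837), as the construction of that scale adds the same amount to every probe set. CDK4 then passed the test at 0.24. Averaging all tested probe sets turned CCND2 to -0.0468, CCND2 minus CCND3 to -0.0631 and CDK4 minus CDK6 to -0.0021. It also brought CCND1 minus CCND2 to -0.01 and CCND1 minus CCND3 to -0.08. These shifts follow from the unlike changes of the probe sets of a gene, and why the probe sets differ was not tested. With each array left out, the change of CCND3 ran between -0.00991 and 0.0453, CDK4 minus CDK6 between -0.00777 and 0.0399, CDKN1A minus CDKN1B between -0.0911 and 0.0134, CDKN1A minus CDKN1C between -0.0625 and 0.00972, and CDKN1B minus CDKN1C between -0.0522 and 0.0687, while the 4 inhibitors stayed below 0, at -0.24 to -0.16 for CDKN1A, -0.21 to -0.13 for CDKN1B, -0.25 to -0.14 for CDKN1C and -0.19 to -0.04 for CDKN2D. Without shared probe sets, CCND2, CDK4, CDKN1A and CDKN2D had no tested probe set left. With the filter at the 75th percentile, CCND1 and CDKN2D were not tested.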
